A study of Mus musculus with 15 samples.

Results

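Oligodendrocytes, the myelin-forming cells of the central nervous system, arise from precursors through a short-lived stage of newly formed cells. The 10 genes described here mark or govern these steps and were taken by symbol from the 26145 genes listed in the files: Pdgfra, Cspg4, Olig1, Olig2, Sox10, Gpr17, Nkx2-2, Bmp4, Enpp6 and Tcf7l2. All 10 were found. Their levels were followed along the 3 classes of the lineage named by the authors, which are oligodendrocyte precursors (OPC), newly formed oligodendrocytes (NF Oligo) and mature oligodendrocytes (Oligo), at P60 and P21, with neurons as the background.

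RNA was counted in single cells of the PFC of male C57BL/6N mice in 15 libraries, each made from 2 pooled mice. The adult animals, 8 to 10 weeks old by their labels and called P60, had self-administered cocaine or saline. Their 12 libraries form 6 groups of 2: saline and cocaine at the end of the maintenance phase, at 48 h of withdrawal and at 15 days of withdrawal. The paper places the catheter surgery at P60 and collection after the sessions that followed. The mice were thus older than P60 at collection, by an amount that differed between the time points. The 3 other libraries came from mice of 3 weeks (P21) without self-administration. The methods name fewer P21 mice than 3 such pools would need, so P21 libraries may share animals, and the p-values of the age comparison measure the spread between libraries. The tissue field of the labels names the nucleus accumbens, whereas the titles, the source field and the paper name the PFC.

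Precursors divide and keep a pool under the control of growth factors such as PDGF-AA, which acts through the receptor encoded by Pdgfra. When a precursor leaves the cycle it shuts off this receptor, passes through a premyelinating stage that is marked by Gpr17, Bmp4 and Enpp6, and then switches on the myelin genes. The transcription factors Olig1, Olig2 and Sox10 are present throughout the lineage, while Nkx2-2 and Tcf7l2, the latter a partner of beta-catenin in the Wnt pathway, act around the time of differentiation.

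A level is given as CPM: the unique molecular identifiers (UMIs, each standing for 1 captured mRNA molecule) of a gene, summed over the cells of a class in a library, per 1000000 UMIs of the 25989 genes left after 156 mitochondrial and ribosomal protein genes were set aside. The P60 libraries held 767 OPCs, 336 NF Oligo and 1578 Oligo cells whose class and cluster names agreed, and the P21 libraries held 22, 492 and 512. Per library the P60 numbers ran from 3 to 178 OPCs, from 0 to 60 NF Oligo and from 41 to 231 Oligo cells, and only libraries with at least 10 cells of a class were used for it. This left 11, 11 and 12 P60 libraries, and 1, 3 and 3 P21 libraries. All retained cells of a library held between 8375172 and 42892922 UMIs, the most in the 15-day saline and cocaine libraries and in P21 library 1. Pairs of libraries shared between 0 and 27 cell barcodes.

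The class names were checked with markers that are not among the 10 genes. The summed level of 7 precursor markers, Ptprz1 the highest, was 3234 to 4779 CPM in the OPCs of the P60 libraries, 323 to 864 CPM in NF Oligo and 6.76 to 55.1 CPM in Oligo. The 6 measured markers of newly formed cells, led by Fyn, summed to 3643 to 5566 CPM in NF Oligo, at most 765 CPM in OPCs and 183 to 353 CPM in Oligo, and neither list had a measured marker at 0 in its own class. The 8 measured markers of mature cells, led by Cldn11, summed to 31550 to 39078 CPM in Oligo and 36.1 to 326 CPM in OPCs. In NF Oligo they came to 2980 to 12501 CPM, with a mean of 7122 CPM, above the 4763 CPM of that class's own markers, and none was at 0. Neuronal RNA was present in the lineage libraries: 4 markers of excitatory neurons, Snap25 among them, summed to 202 to 2842 CPM in OPCs and 95.3 to 1067 CPM in Oligo, against 7306 to 8837 CPM in excitatory neurons.

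The promoters of Bmp4, Enpp6 and Tcf7l2 are given here because these 3 genes were over 10-fold higher in NF Oligo than in OPCs. RefSeq promoters on GRCm38.p6 were matched for 7 of the 10 genes, and the 250 bases before the start were read. Capitals mark the letters ACAATG or ACAAAG, which are core letters of SOX sites, or their complements CATTGT and CTTTGT. The E-box letters CAGCTG and the TCF-type letters CTTTGA (complement TCAAAG) were also searched on both strands and were absent from these windows. CTTTGA and CTTTGT share their first 5 letters but differ in the last, so no match of these exact letters counts under both. Other forms of SOX and TCF sites were not searched, so their absence from these windows was not shown.
Bmp4, chr14:46390670-46390919, minus strand: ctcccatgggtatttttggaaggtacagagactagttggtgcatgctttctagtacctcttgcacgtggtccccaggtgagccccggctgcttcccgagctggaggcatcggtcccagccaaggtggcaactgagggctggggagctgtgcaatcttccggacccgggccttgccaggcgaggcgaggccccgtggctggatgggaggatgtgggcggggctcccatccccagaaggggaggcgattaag
Enpp6, chr8:46986637-46986886, plus strand: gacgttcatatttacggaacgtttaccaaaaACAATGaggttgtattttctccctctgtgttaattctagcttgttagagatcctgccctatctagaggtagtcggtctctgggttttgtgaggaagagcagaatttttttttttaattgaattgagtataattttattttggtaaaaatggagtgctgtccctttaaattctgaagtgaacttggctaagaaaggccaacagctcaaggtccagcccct
Tcf7l2, first start, chr19:55741560-55741809, plus strand: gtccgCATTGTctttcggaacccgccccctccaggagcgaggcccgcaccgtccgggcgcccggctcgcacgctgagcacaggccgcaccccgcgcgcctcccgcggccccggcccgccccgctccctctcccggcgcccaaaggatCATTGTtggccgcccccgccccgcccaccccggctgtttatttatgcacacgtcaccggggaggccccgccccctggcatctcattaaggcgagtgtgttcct
Tcf7l2, second start, chr19:55895071-55895320, plus strand: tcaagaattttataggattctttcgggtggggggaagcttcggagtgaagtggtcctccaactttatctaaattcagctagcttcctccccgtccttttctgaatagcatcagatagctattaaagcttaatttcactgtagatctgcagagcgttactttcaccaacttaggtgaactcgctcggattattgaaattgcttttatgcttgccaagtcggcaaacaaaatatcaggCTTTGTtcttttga
The Enpp6 window holds ACAATG 219 bases before the start, and the window of the first Tcf7l2 start holds its complement CATTGT 245 and 103 bases before. The second Tcf7l2 start has CTTTGT, the complement of ACAAAG, 14 bases before it, and the Bmp4 window has none of the letters searched. Among the other windows read, those of Pdgfra, Cspg4 and Nkx2-2 hold none either, and that of Olig2 holds CATTGT 68 bases before the start. Of all 32851 promoters of this length, 10.7% hold ACAATG, 16.5% ACAAAG, 13.8% CTTTGA and 13% CAGCTG. GC content was 38.4% in the Enpp6 window, 63.2% in that of Bmp4, 72.8% in that of the first Tcf7l2 start and 40.8% in that of the second, against 53.2% over all promoters.

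The levels by class that follow are a description without a test. The authors clustered the cells on canonical correlation vectors of variable genes, which may include members, and named the OPC class from Pdgfra and the NF Oligo class from Bmp4, so the class in which each of these genes is high was set by the naming. Values are the mean ± SD over libraries at P60 unless stated, and gene positions are on NCBIM37, the build of the files.

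The surface proteins of the precursor, a growth factor receptor (Pdgfra) and a proteoglycan (Cspg4), had transcripts close to limited to OPCs within the lineage. Pdgfra (chr5:75548316-75594229, plus strand) was at 416 CPM in the lowest OPC library, 789 in the median and 1099 in the highest (775 ± 218 CPM, n = 11). In NF Oligo it ran from 0 to 122 CPM with a median of 4.66, and the library at 122 CPM, cocaine maintenance replicate 2, owes this to 7 UMIs in 14 cells. In Oligo 2 UMIs were counted in all 1578 cells, a mean of 0.301 CPM. OPCs were higher than NF Oligo in 11 of 11 libraries, by 45.8-fold in the means, and the ranges did not overlap. Cspg4 (chr9:56712911-56747677, plus strand), which encodes the NG2 proteoglycan of precursors and pericytes, was at 270 ± 85.7 CPM in OPCs, 22.6 ± 17.8 in NF Oligo and 0.638 ± 0.969 in Oligo. It thus stood 12.0-fold higher in OPCs than in NF Oligo, without overlap, and 35.4-fold higher in NF Oligo than in Oligo.

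The 3 factors of the whole lineage were detected in every class, with different slopes. Olig1 (chr16:91270014-91272184, plus strand), a basic helix-loop-helix factor, was at 531 ± 89.4 CPM in OPCs (n = 11), up to 655 CPM. It was 2.47-fold lower in Oligo (215 ± 61.7 CPM, n = 12), with no overlap, and NF Oligo (190 ± 21.8 CPM, n = 11) and Oligo overlapped. Olig2 (chr16:91225795-91228922, plus strand), the related factor that specifies the lineage and lies 41.091 kb upstream of Olig1, declined step by step from 222 ± 67.7 CPM in OPCs to 92.9 ± 25.4 in NF Oligo and 41.1 ± 16.7 in Oligo. Neighbouring classes overlapped for Olig2, but OPCs exceeded NF Oligo in 10 of 11 libraries and NF Oligo exceeded Oligo in 11 of 11. Sox10 (chr15:78985343-78994920, minus strand), which is needed for the expression of myelin genes, was the flattest of the 10: 306 ± 104 CPM in OPCs, 352 ± 51.2 in NF Oligo and 225 ± 51.1 in Oligo, with overlap between all neighbours.

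Genes of the transition were shared by OPCs and newly formed cells. Gpr17 (chr18:32102651-32109290, minus strand), a G protein-coupled receptor that holds back maturation, ran from 337 to 746 CPM in OPC libraries (531 ± 116) and from 832 to 1617 CPM in NF Oligo (1201 ± 246), 2.26-fold higher and without overlap. It was at 16.2 ± 14.8 CPM in Oligo, where libraries ranged from 0 to 43.3 CPM. Nkx2-2 (chr2:147003282-147019979, minus strand), a homeodomain repressor that times differentiation, followed the same order at 92.1 ± 36.2, 153 ± 46.4 and 33.1 ± 9.98 CPM. Its range in OPCs overlapped with those of both other classes. The lowest NF Oligo library (81.5 CPM) lay above the highest Oligo library (48.6 CPM). Nkx2-2 was higher in NF Oligo than in OPCs in 9 of 11 libraries. Gpr17 lies across Lims2 on the other strand and Nkx2-2 across an antisense gene. Whether counting used the strand is not given in the sources used here, and the part of such partners in these levels was not tested.

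The remaining 3 genes were high in newly formed cells and fell on both sides of them. Bmp4 (chr14:47003195-47010344, minus strand), a secreted ligand that restrains differentiation, was at 794, 856 and 1363 CPM in the lowest, median and highest NF Oligo library, against 27.1 ± 16.5 CPM in OPCs and 0.794 ± 1.28 CPM in Oligo. NF Oligo exceeded OPCs 36.9-fold, without overlap. Enpp6 (chr8:48072279-48180249, plus strand), a choline phosphodiesterase, was at 1132 ± 151 CPM in NF Oligo, and 2 UMIs were counted in all 767 OPCs. It stayed at 108 ± 37.2 CPM in Oligo, 10.4-fold below NF Oligo and higher than in OPCs in 11 of 11 libraries. Tcf7l2 (chr19:55816300-56008144, plus strand) was at 375, 511 and 833 CPM in the lowest, median and highest NF Oligo library, 10.8-fold above OPCs (53.1 ± 22.3 CPM) and without overlap, and at 26.4 ± 9.09 CPM in Oligo. Bmp4 and Enpp6 each overlap predicted or uncharacterised genes on the other strand.

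**Figure D1:**
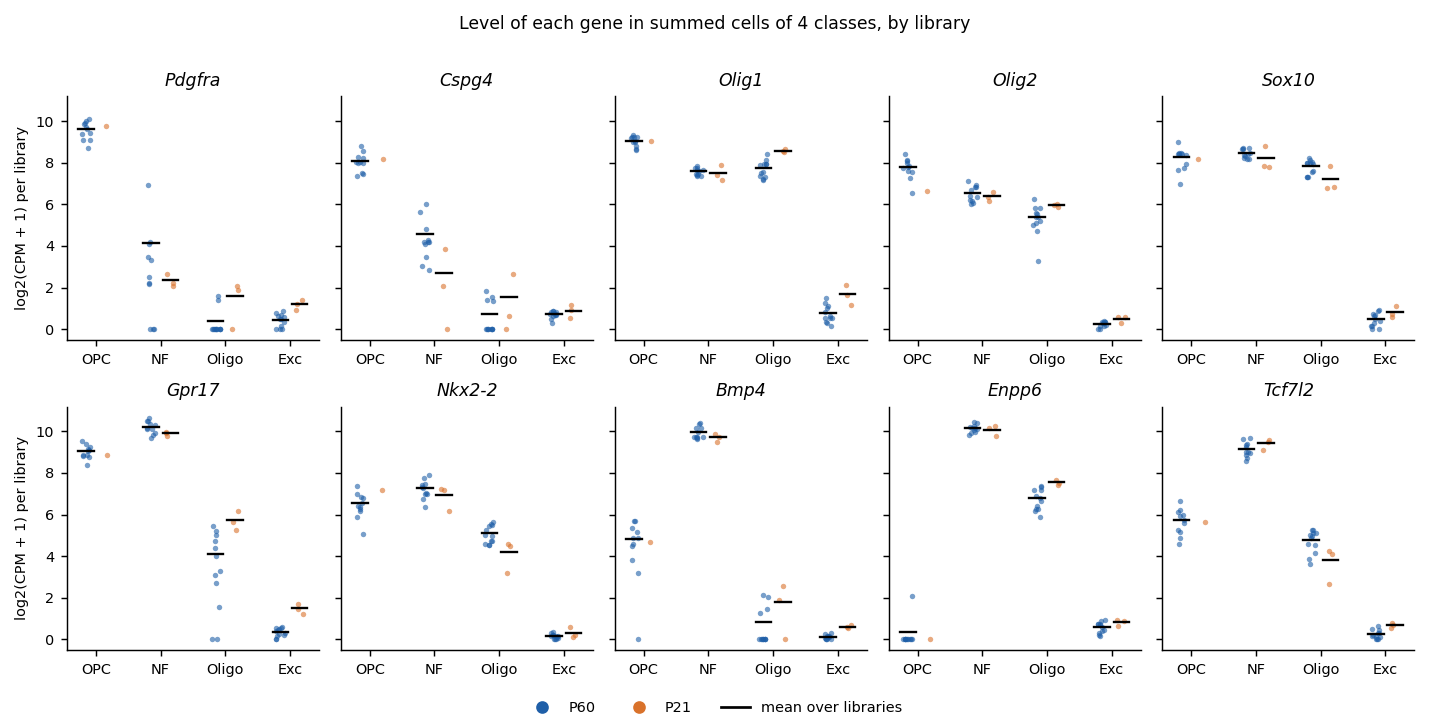
Level of the 10 genes in OPC, NF Oligo, Oligo and excitatory neurons (Exc), 1 point per library with at least 10 cells, as log2(CPM + 1), with black bars at the mean CPM over libraries (blue, P60; orange, P21; OPCs at P21 have 1 library). Pdgfra and Cspg4 fall after OPC, Olig1, Olig2 and Sox10 stay across the lineage, and Gpr17, Bmp4, Enpp6 and Tcf7l2 are highest in NF Oligo, while excitatory neurons stay near 0.

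The same stages were seen cell by cell after each cell was thinned to 2000 UMIs, since cells of different depth cannot be compared as counted. A UMI of Pdgfra was found in 73.9% of P60 OPCs (95% exact binomial interval 70.7% to 77.0%, which covers counting error only), 1.79% of NF Oligo and 0 of 1578 Oligo cells, an upper bound of 0.233%. For Gpr17 the shares were 56.7% in OPCs, 78.3% in NF Oligo and 1.46% in Oligo, and for Enpp6 they were 0.130%, 73.8% and 15.2%. Unthinned, 87.6% of OPCs held a UMI of Pdgfra and 87.8% of NF Oligo cells a UMI of Enpp6. In excitatory neurons, which should lack these genes, the thinned share was between 0.0139% (Bmp4) and 0.180% (Olig1) of 14433 cells. The median depth before thinning was 13622 UMIs in excitatory neurons, 3405 in OPCs, 5543.5 in NF Oligo and 3626 in Oligo. The 0.130% of OPCs with Enpp6 and the shares of Pdgfra, Cspg4 and Bmp4 in Oligo, at most 0.190%, thus lie close to the neuronal background.

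OPCs held on average 3.40 of the 10 genes per thinned cell, NF Oligo 3.86 and Oligo 0.981. None of 336 NF Oligo cells lacked all 10, against 3.13% of OPCs and 31.6% of Oligo cells. Within NF Oligo, Tcf7l2 was found in 40.7% of the 231 cells with a UMI of Bmp4 and in 67.6% of the cells without one. At P21 these shares were 55.4% of 298 cells and 72.3% of the rest. Gpr17 and Bmp4 tended to occur in the same NF Oligo cells, with Bmp4 in 72.2% of cells with Gpr17 and 56.2% of cells without it at P60, and in 69.9% and 44.3% at P21. Cells of a library share its depth and its free RNA, so these shares describe the cells and were not tested.

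The 9 P60 clusters of NF Oligo spread these genes into an order. When the clusters were ranked by Mag, a myelin protein gene that is not among the 10, Gpr17 declined from 1840 CPM in the cluster lowest in Mag (483 CPM of Mag, 76 cells) to 416 CPM in the cluster highest in Mag (5766 CPM, 46 cells). Nkx2-2 declined from 284 to 8.60 CPM over the same span. Tcf7l2 went the other way, from 184 to 1018 CPM. Bmp4 stayed between 1002 and 1325 CPM in 8 clusters and was at 5.73 CPM (2 UMIs) in the last. Enpp6 was at 615 CPM in the first cluster, 1775 CPM in the cluster next to last and 995 CPM in the last, whereas Sox10 ran from 248 to 402 CPM. All P60 NF Oligo libraries together held 15 UMIs of Pdgfra, 7 of them in cocaine maintenance replicate 2. Pdgfra and Cspg4 were at 35.4 CPM (11 UMIs) and 70.9 CPM (22 UMIs) in the first cluster, with 0 UMIs of either in the last. The cluster second lowest in Mag held 22.0 and 44.0 CPM, and the 7 above it at most 3.20 and 24.8 CPM. Vcan, a precursor marker that is not among the 10, did not follow them: it was at 335 and 308 CPM in these 2 clusters, 196 to 323 CPM in the next 6 and 22.9 CPM in the last. The 2 clusters together made up 16.7% to 64.3% of the NF Oligo cells of a library.

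P21 cells carry no cluster number within NF Oligo, so cells of both ages were also grouped by their own Mag level: below 1000 CPM, 1000 to 3000 CPM, and 3000 CPM and above. At P60 these groups held 149, 120 and 67 cells, and at P21 278, 127 and 87. Gpr17 was at 1683, 1029 and 499 CPM across the groups at P60 and at 1418, 726 and 463 CPM at P21. Nkx2-2 declined from 246 to 22.8 CPM at P60 and from 193 to 4.38 CPM at P21. Tcf7l2 was at 230, 578 and 980 CPM at P60 and at 467, 959 and 807 CPM at P21. Bmp4 was at 1202, 1207 and 232 CPM at P60 and at 1285, 739 and 101 CPM at P21, and in each of the 3 P21 libraries its level in the group highest in Mag, 42.9 to 114 CPM, was below that in the group lowest in Mag, 1210 to 1327 CPM. For these 4 genes the highest group lay on the same side of the lowest at both ages, although Tcf7l2 at P21 was highest in the middle group. Other members went opposite ways: from the lowest to the highest group Enpp6 went from 644 to 1342 CPM at P60 and from 1020 to 818 CPM at P21, and Olig1 from 264 to 198 CPM at P60 and from 161 to 316 CPM at P21. Olig2 went from 108 to 47.9 CPM at P60 and was at 93.7 and 96.5 CPM at P21. The grouping was chosen after the clusters had been seen, and median depth rose with Mag from 2743 to 5438 UMIs per cell at P21. At P60 median depth was 4497, 6205 and 6164 UMIs per cell across the groups.

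**Figure D2:**
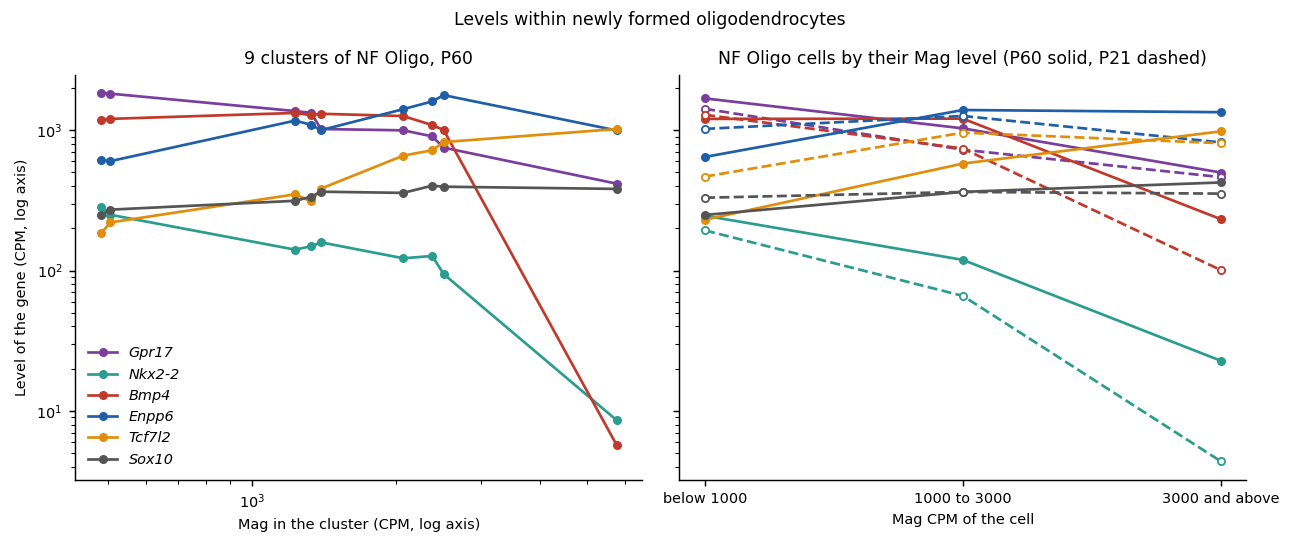
Levels (CPM, log axis) of 6 of the genes within NF Oligo, in the 9 P60 clusters against their Mag level (left, log axis) and in cells grouped by their own Mag level (right; P60 solid with filled points, P21 dashed with open points). Over the clusters Gpr17 and Nkx2-2 are lower and Tcf7l2 higher at the highest than at the lowest Mag, Bmp4 drops to 5.73 CPM in the last cluster, and Sox10 stays between 248 and 402 CPM; at P21 Tcf7l2 is highest (959 CPM) and Bmp4 already lower (739 CPM) in the middle group.

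In OPCs the 9 P60 clusters, of 17 to 284 cells, all held Pdgfra, from 547 to 977 CPM, and Cspg4, from 153 to 389 CPM. Olig1 ran from 251 to 671 CPM, Olig2 from 157 to 258 CPM and Sox10 from 177 to 357 CPM. Gpr17 ran from 272 to 669 CPM and Nkx2-2 from 35.3 to 111 CPM. Tcf7l2 was at 17.4 to 84.4 CPM and Bmp4 at 0 to 81.1 CPM, and in the smallest cluster these rested on 1 and 0 UMIs. The lowest cluster for Olig1 and Gpr17 was the same, at 696 CPM of Snap25, and Snap25 ran from 216 to 943 CPM over the OPC clusters. The cluster highest in Snap25 was also the highest in Gpr17, at 669 CPM, and held 456 CPM of Olig1. The part of neuronal RNA in these levels was not tested. Among the 13 Oligo clusters, the one highest in Mag (7655 CPM, 172 cells) was also highest in Olig1, 418 CPM, and in Gpr17, 76.5 CPM, and held 16.6 CPM of Enpp6. In the other 12 clusters Olig1 ran from 124 to 251 CPM, Gpr17 from 0 to 31.2 CPM and Enpp6 from 0 to 307 CPM.

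Outside the lineage 3 of the genes had a second home. Cspg4 was at 78.4 ± 13.6 CPM (n = 12) and Bmp4 at 26.3 ± 6.76 CPM in the endothelial class, and Tcf7l2 was at 87.6 ± 22.1 CPM in astrocytes (n = 11) and 36.4 ± 8.81 CPM in the endothelial class. The endothelial class also held the pericyte markers, and over its 13 clusters Cspg4 ran from 18.1 to 144 CPM and Bmp4 from 3.44 to 59.6 CPM with the summed level of 7 pericyte markers (Pearson r = 0.937 for Cspg4 and 0.975 for Bmp4 across clusters, which share libraries and are not replicates). For Tcf7l2 this r was -0.07. Pdgfra reached 22.7 CPM in a single endothelial cluster and stayed at or below 5.65 CPM in the others. That cluster was the highest in fibroblast markers (305 CPM), and also in Olig1 (11.6 CPM) and Gpr17 (6.98 CPM). Another cluster, with 273 CPM of fibroblast markers, held 3.75 CPM of Pdgfra. The source of this Pdgfra was not tested. At P21 Cspg4 was at 57.7 ± 5.89 CPM and Bmp4 at 11.8 ± 2.88 CPM in the endothelial class (n = 3).

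**Figure D3:**
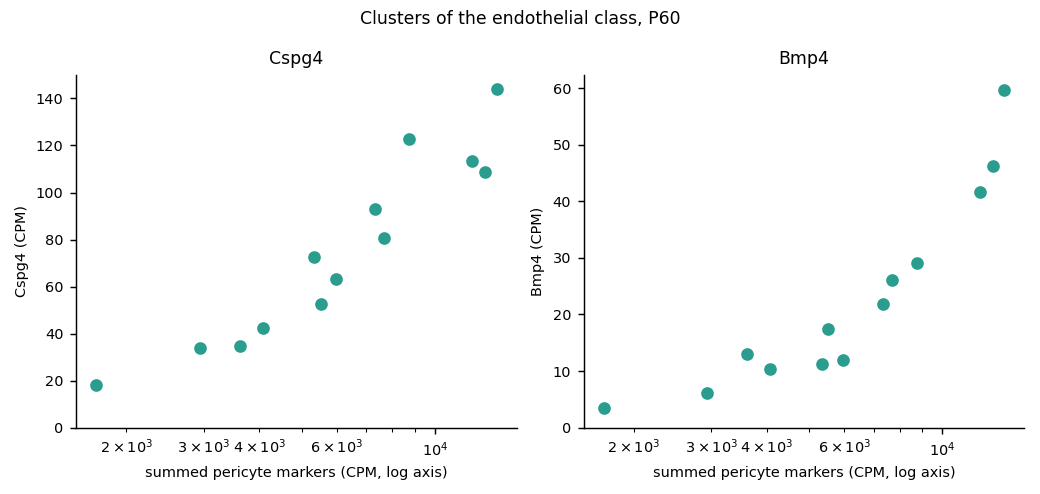
Cspg4 (left) and Bmp4 (right) in CPM against the summed CPM of 7 pericyte markers (log axis), 1 point for each of the 13 endothelial clusters at P60. Both genes are lowest where the pericyte markers are lowest, 18.1 CPM of Cspg4 and 3.44 CPM of Bmp4, and highest where they are highest.

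In neurons none of the 10 genes exceeded a mean of 4.36 CPM at P60, which was Bmp4 in inhibitory neurons, or 6.28 CPM at P21, which was Gpr17 in inhibitory neurons. Other glia carried low levels of the transcription factors: Nkx2-2 was at 19.0 ± 11.4 CPM and Olig1 at 17.5 ± 8.31 CPM in P60 astrocytes, and Tcf7l2 at 23.8 ± 14.5 CPM in microglia, close to its level in Oligo. Microglia at P21 held 60.6 ± 16.3 CPM of Pdgfra, from 25 UMIs in 3 libraries, against 1.05 ± 1.61 CPM at P60. Markers of other classes moved with it in these sums: 7 precursor markers summed to 333 to 749 CPM at P21 and 12.5 to 146 CPM at P60 (1 and 2 of them at 0), 5 astrocyte markers to 641 to 1656 and 79.1 to 696 CPM, and 4 endothelial markers to 222 to 736 and 0 to 315 CPM. The 5 microglia markers summed to 14190 to 24251 CPM at P21 and 22250 to 38942 CPM at P60. Their part in the level of Pdgfra was not tested.

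Genes with the most similar pattern were sought over 93 class-by-library sums of the 8 P60 classes among 10033 genes, as Pearson r of log2(CPM + 1). Members found each other: Olig1 and Olig2 had r = 0.95, Olig1 and Sox10 0.920, and Olig2 and Nkx2-2 0.928. The gene closest to Sox10 was Gjc3 (r = 0.972), to Gpr17 Dct (0.960), to Nkx2-2 Col9a3 (0.955), to Tcf7l2 Ilk (0.927) and to Pdgfra Pnlip (0.892). Enpp6 was closest to Cldn11 (0.911), which encodes a tight junction protein of myelin, Cspg4 to Cav1 (0.911) and Bmp4 to Vps36 (0.866). The next genes were Fam70b for Pdgfra, Calcrl for Cspg4, Prkcq for Sox10, Zfp488 for Gpr17, Cdk4 for Bmp4, 4732418C07Rik for Enpp6 and Tns3 for Tcf7l2. These r are across sums that share libraries, and they describe likeness in level only.

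The age comparison asked how the 10 genes differ between adolescent and adult cells of the same class, with the 6 saline P60 libraries set against the 3 P21 libraries. P21 cells had been assigned to classes by the authors through their similarity to P60 clusters. Newly formed cells made up 37.5% to 62.9% of the lineage cells of the P21 libraries and 0% to 26.4% of those of the P60 libraries, whereas OPCs made up 1.27% to 2.51% and 6.82% to 67.7%. These shares count cells whose class and cluster agree; by deposited class OPCs made up 3.11% to 5.14% at P21 and 6.82% to 67.7% at P60.

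In mature oligodendrocytes 4 of the 7 genes tested were lower at P60, and in newly formed cells none of 8 was called. A gene was called where edgeR's quasi-likelihood test gave a Benjamini-Hochberg adjusted p under 0.05 together with over 1.5-fold change. Across the 4891 genes tested in Oligo 870 were called (17.8%), 10.1% as lower and 7.67% as higher at P60. Pdgfra, Cspg4 and Bmp4 were too low in Oligo to be tested.

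Olig1 was at 366, 374 and 402 CPM in the 3 P21 libraries and at 143 to 346 CPM, with a median of 212, in the 6 saline P60 libraries. The groups did not overlap, and Olig1 fell by 0.87 on the log2 scale (SE 0.21, adjusted p = 0.00909), 1.83-fold. Olig2 was at 58.5, 61.1 and 64.4 CPM at P21 and at 25.1 to 55.2 CPM, median 40.6, at P60, and fell by 0.76 on the log2 scale (SE 0.23, adjusted p = 0.0276). Both factors of the Olig pair thus stood lower in adult Oligo cells in every saline library.

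Enpp6 was at 172, 182 and 204 CPM at P21 and at 57.5 to 158 CPM, median 90.4, at P60, which is 2.06-fold lower (log2 -1.04, SE 0.24, adjusted p = 0.00694). Gpr17 was at 37.5, 48.8 and 71.7 CPM at P21 and at 0 to 31.2 CPM, median 8.05, at P60, which is 3.34-fold lower (log2 -1.74, SE 0.49, adjusted p = 0.0262). The groups of all 4 called genes were separate, as was the case with P60 lower for 8.63% of all genes tested. The 3 other genes had higher means at P60 but overlapped and were not called: Sox10 (log2 0.45, adjusted p = 0.171), Nkx2-2 (0.61, 0.224) and Tcf7l2 (0.64, 0.313). Sox10 was at 225, 110 and 114 CPM in P21 replicates 1, 2 and 3 and at 187 to 276 CPM in the saline P60 libraries, so that its overlap rests on P21 replicate 1. Without that library Sox10 was called higher at P60 (log2 0.94, adjusted p = 0.00298).

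The size of these differences varied with the saline libraries used. Against the maintenance and 48 h saline libraries alone, an alternative chosen after seeing the data, Gpr17 fell by 3.31 on the log2 scale and Olig1 by 1.22, and against the 15-day saline libraries alone Gpr17 fell by 1.04 and Olig1 by 0.53 (adjusted p = 0.105, not called). Enpp6 moved the other way, by -0.75 and -1.62. Gpr17 was not called without saline maintenance replicate 1 (adjusted p = 0.0501) or 2 (0.0515), without P21 replicate 1 (0.0778) or 3 (0.0843), or with all 12 P60 libraries (0.0501). Olig2 lost its call in 9 of 21 alternatives, among them each that left out a P21 library (adjusted p = 0.0611 to 0.0726), the one without saline maintenance replicate 1 (0.0585) and DESeq2 (0.0729). Enpp6 was called in all 21 alternatives and Olig1 in 20. Without P21 replicate 1 the called members were thus Olig1, Enpp6 and Sox10. The median depth of the Oligo cells was 4086.5 to 5684 UMIs per cell in the P21 libraries and 2690 to 4750 at P60; its part in these results was not tested. The saline P60 mice had also gone through food restriction and training, catheter surgery and daily sessions, and the P21 mice had not. Age, this procedure and the preparation of the libraries cannot be told apart.

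**Figure D4:**
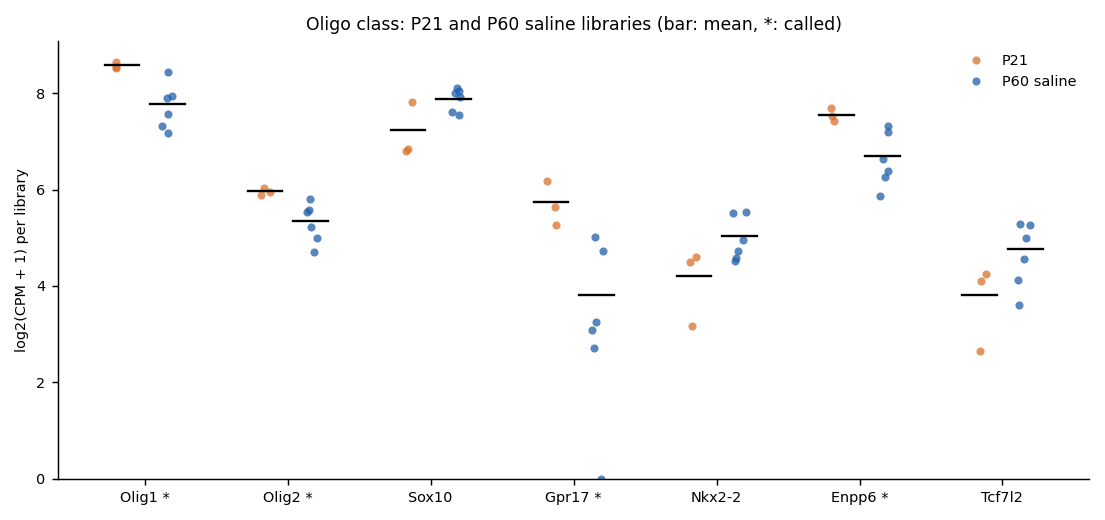
Level in Oligo of the 7 genes tested for age, as log2(CPM + 1), 1 point per library (orange, 3 P21 libraries; blue, 6 saline P60 libraries), with bars at the mean CPM and an asterisk for called genes. P21 points lie above all P60 points for Olig1, Olig2, Gpr17 and Enpp6, and the groups overlap for Sox10, Nkx2-2 and Tcf7l2.

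In NF Oligo the 8 genes tested lay between -0.26 (Tcf7l2) and 0.23 (Gpr17) on the log2 scale, with a lowest adjusted p of 0.574, while 98 of 4592 genes (2.13%) were called, 0.871% as higher and 1.26% as lower. None of the 8 reached an unadjusted p of 0.05 in edgeR, DESeq2 called none either, and the ranges of P21 and P60 overlapped for all 8, whereas they were separate for 8.89% of all genes tested (4.2% higher and 4.68% lower at P60). Gpr17 was at 889, 980 and 990 CPM at P21 and at 918 to 1459 CPM, median 1104, at P60. Enpp6 was at 870, 1157 and 1229 CPM at P21 and at 962 to 1394 CPM, median 1119, at P60, with a difference of 0.01 (SE 0.17). These values pool cells of all Mag levels. The cells below 1000 CPM of Mag were grouped after the data were seen and not tested. In them Enpp6 ran from 857 to 1245 CPM in 3 P21 libraries and from 577 to 756 CPM in 7 P60 libraries of both treatments. Tcf7l2 ran from 406 to 553 and from 154 to 313 CPM. Their median depth was 2743 UMIs per cell at P21 and 4497 at P60, so the same limit stands for fewer UMIs of Mag at P21. The part of depth in these differences was not tested. Saline maintenance replicate 2 had no NF Oligo cells and is not in these values.

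Whether the age difference itself differed between the classes was tested in a fit of 16 sums with library as a term, in which 117 of 6036 genes were called (1.94%; 1.31% as higher and 0.63% as lower). Among 8 members tested 1 was called: the difference of Enpp6 was higher in NF Oligo than in Oligo by 1.20 on the log2 scale (SE 0.23, adjusted p = 0.000924). For Olig1 the difference was 0.80 (adjusted p = 0.0683) and for Gpr17 1.82 (adjusted p = 0.247), so a difference between the classes was not shown for them. Without cells that held a UMI of Snap25 the value of Gpr17 was 2.81 and was called (adjusted p = 0.00164), as it was without a filter on low counts. Olig1 was called without saline 15 days replicate 2 (0.96, adjusted p = 0.0411) or without P21 replicate 1 (1.10, adjusted p = 0.0149).

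Age was not tested in OPCs under the minimum of 10 cells, because the P21 libraries held 14, 5 and 3 OPCs whose class and cluster agreed. Over these 22 cells Pdgfra was at 722 CPM (41 UMIs), Cspg4 at 317 CPM, Olig1 at 511 CPM and Gpr17 at 546 CPM, and Enpp6 had 0 UMIs. Another 29 P21 cells are classed as OPC but carry an excitatory cluster name, and with them Snap25 went from 176 to 2020 CPM. With these cells kept, 5 of 8 members tested were called higher at P60, where 1012 of 4938 genes were called (20.5%, 9.72% as higher), from Gpr17 (log2 1.09) to Cspg4 (2.41). With the agreeing cells and a minimum of 5 per library, 0 members and 0 of 3914 genes were called.

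Genes that act with the 10 were followed in the same fits, from lists chosen with earlier results of these data known. In Oligo, 8 of the 23 myelin and mature genes tested fell from P21 to P60 and 4 rose (10.1% and 7.67% of all genes tested), with a list median of -0.22 against 0.03 over all genes. Ugt8a, which makes the galactolipids of myelin, fell 4.78-fold (adjusted p = 3.58e-07) and Fa2h, which hydroxylates their fatty acids, 2.55-fold (adjusted p = 2.42e-06), while Ptgds rose 9.73-fold (adjusted p = 0.00938) and Apod 2.41-fold (adjusted p = 0.0300). Against the same shares of all genes, 3 of 11 genes of newly formed cells fell and none rose: Arpc1b (3.15-fold), Sirt2 (1.80-fold) and Lims2 (1.66-fold), the last of which lies across Gpr17. Of 4 precursor genes tested Fabp7 and Cntn1 fell. In these Oligo sums 5 astrocyte markers came to 138 to 157 CPM at P21 and 226 to 485 CPM in the saline P60 libraries, and 4 markers of excitatory neurons to 121 to 305 and 132 to 1032 CPM, with none at 0 at either age; their part in these results was not tested.

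On the pathways of individual members, Id3, a target gene of BMP signalling, was the only called gene of 4 in the Bmp pathway list in Oligo and fell 5.25-fold (adjusted p = 0.000274), from 46.6 to 112 CPM in the P21 libraries to 0 to 17.4 CPM in the saline P60 libraries. The 4 endothelial markers, none of which was at 0 at either age, summed to 54.2 to 170 CPM in the same P21 sums and to 0 to 55.8 CPM in the saline P60 sums, and their part in the level of Id3, a gene that vascular cells also express, was not tested. Counts in lists this short stand beside 10.1% of all genes that fell and 7.67% that rose. In the Wnt list of 6, Daam2 rose 1.96-fold and Apc fell 1.66-fold. Of 3 receptors related to Gpr17, Lpar1 fell 1.72-fold and S1pr5 1.64-fold. None of 16 other lineage transcription factors and none of 5 Pdgf pathway genes was called in Oligo. In NF Oligo, where 1.26% of all genes fell and 0.871% rose, Mbp and Ugt8a of 17 myelin and mature genes and Mpzl1 of 22 genes of newly formed cells fell, and no gene of the 8 lists rose.

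Cocaine was compared with saline in each class over the 3 time points together and at each of them, in fits of all P60 libraries. None of the 9 members tested in OPCs, 9 in NF Oligo and 7 in Oligo was called in any of the 12 comparisons. Calls over all genes were few too, from 0% to 0.0847% in OPCs, 0% to 0.0553% in NF Oligo and 0% to 0.264% in Oligo. DESeq2 and every other setting run gave 0 members as well. Over the 3 time points the 9 log2 differences in OPCs lay between -0.28 (Cspg4, SE 0.17) and 0.59 (Tcf7l2, SE 0.34). In NF Oligo 8 lay between -0.06 and 0.16 (SE 0.14 to 0.31), and Pdgfra was at 1.75 with an SE of 2.26, from at most 2 UMIs in every library but cocaine maintenance replicate 2. In Oligo 6 lay between -0.16 and 0.24 (SE 0.12 to 0.31), and Gpr17 was at 1.07 (SE 0.58, adjusted p = 0.873 in edgeR).

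Some differences at single time points were larger, with larger errors. Gpr17 in Oligo at 48 h was at 0 and 5.52 CPM with saline and at 20.3 and 0 CPM with cocaine, from 0 to 6 UMIs a library, which gave log2 2.54 (SE 1.43). At maintenance Pdgfra in NF Oligo had 0 UMIs in the 1 saline library and 1 and 7 in the cocaine libraries, and no fold is given. In OPCs the values of single time points ran from -0.98 (Bmp4 at 48 h, SE 0.85) to 1.04 (Tcf7l2 at maintenance, SE 0.76).

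Of the values of cocaine against saline, 2 were under an unadjusted p of 0.05. Cspg4 in OPCs at 48 h was at 450 and 295 CPM in the saline libraries and 183 and 254 CPM in the cocaine libraries, log2 -0.66 (SE 0.25, adjusted p = 0.999 in edgeR). Nkx2-2 in NF Oligo at 48 h was at 153 and 81.5 CPM with saline and 160 and 214 CPM with cocaine, log2 0.87 (SE 0.42, adjusted p = 0.997 in edgeR). The saline maintenance group had 1 usable library in OPCs and NF Oligo, which was assumed to vary like the others. Differences of the cocaine effect between time points, added after seeing the data, gave 0 called members in every class.

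In each class more genes were called between the 15-day libraries and the other P60 libraries than between cocaine and saline. Maintenance and 48 h were not compared with each other over both treatments. After the levels had been seen, the 4 libraries at 15 days of withdrawal were compared with the mean of maintenance and 48 h, over both treatments. In OPCs 734 of 5900 genes were called (12.4%; 3.46% as lower at 15 days), and 2 of 9 members were among them. Sox10 was at 125, 198, 217 and 246 CPM in the 15-day libraries and at 334 to 511 CPM in the 7 others. The sets did not overlap, as was the case with 15 days lower for 3.41% of all genes tested. Sox10 fell by 0.90 on the log2 scale (SE 0.17, adjusted p = 3.51e-05 in edgeR). Pdgfra was at 416, 548, 549 and 696 CPM at 15 days and at 667 to 1099 CPM in the others, and fell by 0.75 (SE 0.14, adjusted p = 3.32e-05 in edgeR). Of the barcodes with at least 2 UMIs of Pdgfra, 61.5% in the 15-day libraries were not among the retained cells. In the maintenance and 48 h libraries this share was 9.31%, and its part in the fall of Pdgfra was not tested. Cspg4 (log2 -0.52, adjusted p = 0.0354) and Gpr17 (-0.50, 0.00841) passed the adjusted p but not 1.5-fold. Cspg4 passed both without cocaine maintenance replicate 2 (-0.60), cocaine 48 h replicate 1 (-0.59), saline 48 h replicate 2 (-0.61) or cocaine 15 days replicate 2 (-0.66), with an adjusted p of 0.0236 to 0.0318, and Olig2 without cocaine 15 days replicate 1 (-0.87, adjusted p = 0.0225). Without saline 15 days replicate 2, 6 members were called: Cspg4, Olig2, Gpr17 and Nkx2-2 (-1.20, adjusted p = 0.00688) joined Sox10 and Pdgfra.

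These OPC libraries also differed in neuronal RNA: Snap25 was at 602 to 1255 CPM in the 15-day OPC sums and at 152 to 229 CPM in the others. With every cell that held a UMI of Snap25 left out, 45 of 3139 genes tested were called (0.956% as higher and 0.478% as lower at 15 days), in place of 734 of 5900. That fit rests on fewer cells, and the part of cell number in the fall in calls was not tested. In it Sox10 remained called, and Pdgfra fell by 0.66 with an adjusted p of 0.0804 in edgeR. The difference of Olig1 went from -0.33 to 0.08, and that of Gpr17 from -0.50 to -0.01.

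In Oligo 751 of 6437 genes were called between the same sets (11.7%; 8.7% as higher and 2.97% as lower at 15 days), with 3 of 7 members among them. Gpr17 was at 25.5, 31.2, 35.8 and 43.3 CPM in the 15-day libraries and at 0 to 20.3 CPM, median 6.51, in the 8 others. It rose by 2.24 on the log2 scale (SE 0.42, adjusted p = 0.000263), 4.73-fold, and the sets did not overlap, as for 4.32% of all genes that were higher at 15 days. Enpp6 went the other way, at 57.5, 70.1, 75.5 and 76.8 CPM against 82.7 to 163 CPM, and fell by 0.92 (SE 0.17, adjusted p = 0.000127), also without overlap, as for 1.43% of all genes that were lower. Sox10 fell by 0.60 (SE 0.12, adjusted p = 0.000361), at 156 to 194 CPM against 159 to 302 CPM. It was under 1.5-fold without cocaine maintenance replicate 1 (-0.58), without cocaine 48 h replicate 2 (-0.51) and without Snap25-positive cells (-0.47). Without saline 48 h replicate 2, 5 members were called, with Olig1 and Nkx2-2 (-0.69, adjusted p = 0.0438) added.

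Olig1 in Oligo was higher at 15 days by 0.54 (adjusted p = 0.00569), under 1.5-fold. It passed 1.5-fold and was called without Snap25-positive cells (0.80, adjusted p = 8.53e-05), and without cocaine maintenance replicate 1 (0.62), saline 48 h replicate 2 (0.61), cocaine 15 days replicate 2 (0.60) or saline 15 days replicate 1 (0.66). Gpr17 and Enpp6 stayed called under all 19 alternatives run, those without Snap25-positive cells included. Snap25 was at 274 to 489 CPM in the 15-day Oligo sums and at 48.6 to 179 CPM in the others, and median depth was 4330 to 4750 UMIs per cell against 2690 to 3980. NF Oligo cells, the class highest in Gpr17, made up 18.8% to 26.4% of the lineage cells of the 15-day libraries and 0% to 13.4% of those of the others. The part of this share in these results was not tested. Time after the last session, age of the mice and the run of the libraries cannot be told apart here. In NF Oligo 60 of 3617 genes were called (1.66%) and none of 9 members, with Gpr17 at -0.36 (adjusted p = 0.290 in edgeR).

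Related genes moved in these classes as follows. In OPCs 5 of 19 precursor genes fell at 15 days, with Tmem100 (2.19-fold), Neu4 (1.99-fold), Rlbp1 (1.68-fold) and Ptprz1 (1.60-fold) the most changed, and none rose, against 3.46% of all genes tested that fell and 8.98% that rose. Snap25 moved with this comparison, as given above, and without Snap25-positive cells 1 of 18 precursor genes fell (0.478% of all genes). Of 20 lineage transcription factors, Hes5 and Hes1, targets of Notch signalling, fell 2.86-fold and 2.00-fold, and without Snap25-positive cells 0 of 15 fell and 1 rose in edgeR. In Oligo 3 of 14 genes of newly formed cells rose (Rnf122, Nfasc and Arpc1b) (8.7% of all genes tested), and 6 of 24 myelin and mature genes fell (2.97% of all genes tested), among them Anln, Trf (1.91-fold), Apod (1.85-fold) and Car2 (1.66-fold). Without Snap25-positive cells 3 of 11 genes of newly formed cells rose and 2 of 23 myelin and mature genes fell (4.78% and 1.84% of all genes).

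**Figure D5:**
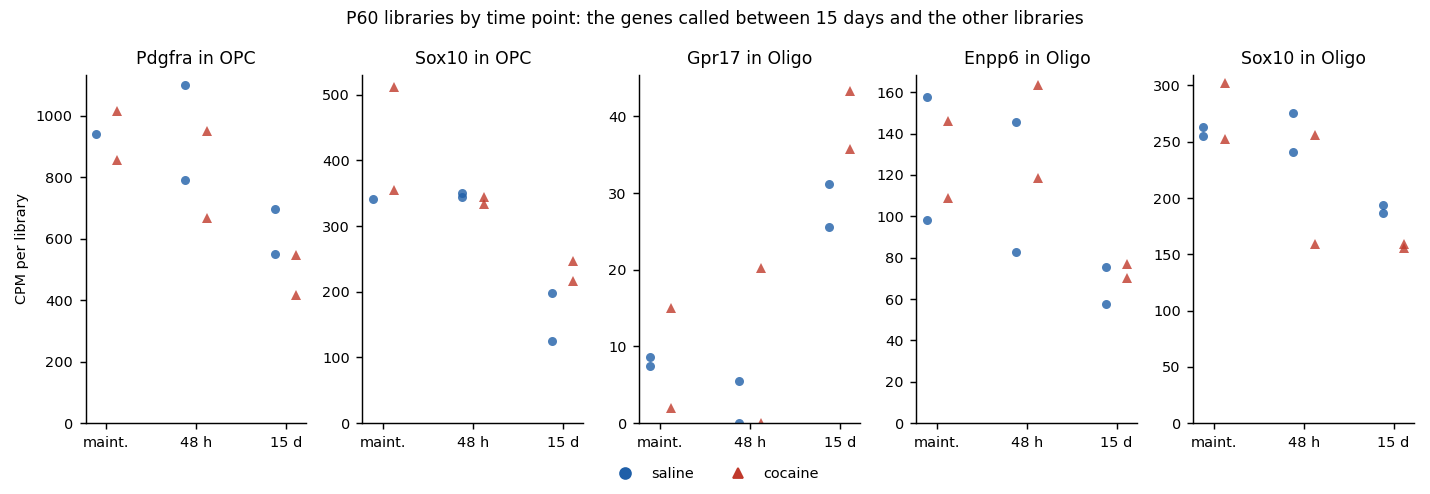
CPM per P60 library at maintenance, 48 h and 15 days of withdrawal (circles, saline; triangles, cocaine) for the genes called between the 15-day libraries and the others. Sox10 in OPC and Enpp6 in Oligo are lower and Gpr17 in Oligo is higher in all 4 libraries at 15 days than in every other library, while Pdgfra in OPC and Sox10 in Oligo overlap.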

How the data were processed

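Single-cell libraries of the PFC were aligned by the authors to mm9 (NCBIM37, Ensembl 67 annotation) with Cell Ranger, and the deposited values are raw UMI counts per gene and cell. The authors clustered cells with Seurat 2.1.0 after removing cells with over 10% mitochondrial RNA, with the most genes, or with under 800 genes (1500 for neurons), and deposited a class and cluster per cell, as well as a mitochondrial fraction between 0 and 1 that was not used here. The authors also removed doublets by gene number and by hand, and no caller was run here.

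Cells whose class and cluster agree were summed per library and class. Counts were tested in R 4.3.3 with edgeR 4.0.16 (filterByExpr, TMM, robust quasi-likelihood), with Benjamini-Hochberg adjustment over all genes tested; DESeq2 1.42.0 and the settings below were alternatives. The tests were checked on simulated data. Python 3.11.15 with scipy 1.17.1 was used for levels and intervals. Members, lists and named genes (the members, the up to 4 largest called genes per list, and the 2 genes most like each member) were chosen with earlier results of these data known.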

Additional observations from a re-analysis of the deposited data

Results flagged for a closer look

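The difference in age effect of Enpp6 between classes is listed because its own test was passed: 1.20 on the log2 scale, NF Oligo less Oligo (SE 0.23, adjusted p = 0.000924 in edgeR's quasi-likelihood test). In 29 sets of 5 or 6 saline P60 libraries, a library far from the others was seen for 2 members, where chance gives about 5%. Cocaine and P21 libraries were not searched in this way. Cspg4 in NF Oligo was at 48.9 CPM in saline 48 h replicate 2, from 6 UMIs in 26 cells, with the next library at 17.0 CPM. Pdgfra in Oligo was at 1.64 CPM in saline 15 days replicate 2, from 1 UMI, with the other 5 saline libraries at 0.

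Data outside the retained cells also held the precursor receptor. Of the 343 barcodes of the 15-day libraries with at least 2 UMIs of Pdgfra, 61.5% (211) are not among the cells the authors retained, with 42.6% to 72.9% in single libraries. The share was 9.31% (42 of 451) in the maintenance and 48 h libraries and 30.0% (30 of 100) at P21. Of the 211 barcodes, 192 had at least 800 genes and at most 10% mitochondrial UMIs, and together they held 399 CPM of Pdgfra and 2076 CPM of Snap25, against 793 and 791 CPM in the 122 barcodes with as many UMIs of Pdgfra that are in the OPC class. The share for Gpr17 was 36.9% at 15 days and for Enpp6 21.6%.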

How the results depend on the processing

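For age in Oligo the number of called members was 4 as reported, 2 with all 12 P60 libraries and with the 15-day saline libraries alone, and 3 in DESeq2, without Snap25-positive cells and with P21 libraries 2 and 3 summed; leaving out each library gave 2 to 4 (2 without saline maintenance replicate 1 or P21 replicate 3). For age by class it was 1, and 2 without a filter on low counts or without Snap25-positive cells, with 1 to 2 on leaving out libraries (2 without saline 15 days replicate 2 or P21 replicate 1). For 15 days in OPCs it was 2, and 1 without Snap25-positive cells, with 2 to 6 on leaving out libraries (6 without saline 15 days replicate 2); without Snap25-positive cells Olig1 reversed to 0.0813 on the log2 scale. For 15 days in Oligo leaving out libraries gave 2 to 5 (5 without saline 48 h replicate 2). Without cocaine 48 h replicate 2, without cocaine maintenance replicate 1 or without Snap25-positive cells, Sox10 in Oligo was under 1.5-fold. A minimum of 20 cells gave no value in NF Oligo for cocaine at maintenance or over the time points, nor for 15 days, and leaving out saline maintenance replicate 1 gave none of these in OPCs or NF Oligo. The counts of members in NF Oligo and for cocaine stayed at 0 under all alternatives run. The cause of these changes was not tested.

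Over all genes, calls ranged from 26 to 310 for age in NF Oligo (98 as reported), 630 to 1183 for age in Oligo (870), 34 to 143 for age by class (117), 45 to 806 for 15 days in OPCs (734), 19 to 161 in NF Oligo (60) and 295 to 1116 in Oligo (751) over the settings other than leaving out a library. Leaving out 1 library gave 32 to 176, 707 to 930, 66 to 127, 428 to 815, 9 to 89 and 651 to 903 in the same order. For cocaine at 15 days in Oligo calls ranged from 1 to 65 (17 as reported), and on leaving out libraries from 4 to 98. All 120 values of levels moved by less than the spread between libraries, and 45 of 60 shares of cells moved when cells were thinned to 1000 UMIs. Age in OPCs has no reported value to compare. No paired analysis was possible because replicate numbers were given in order of the libraries and the labels pair none. Depth limits the low members most: a library of NF Oligo held 57376 to 831731 UMIs, so 1 UMI can be worth over 10 CPM there.

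Members that were not called changed sign under other settings (log2 scale; none was called there). For age in NF Oligo, without a filter on low counts Olig1 was at -0.0679, Sox10 at -0.0626, Nkx2-2 at -0.0254 and Enpp6 at -0.137, with at least 20 cells Nkx2-2 was at -0.127 and Enpp6 at -0.0763, without Snap25-positive cells Olig1 was at -0.0334, Olig2 at 0.235, Nkx2-2 at -0.0851 and Enpp6 at -0.00234, by deposited class Olig2 was at 0.0849, with all 12 P60 libraries Olig1 was at -0.00813 and Olig2 at 0.0306, with the 15-day saline libraries alone Nkx2-2 was at -0.00472, Bmp4 at -0.0082 and Enpp6 at -0.0363, with the other saline libraries alone Olig1 was at -0.0759 and Olig2 at 0.0761 and with P21 libraries 2 and 3 summed Olig1 was at -0.0465 and Sox10 at -0.0944. For 15 days in NF Oligo, without a filter on low counts Enpp6 was at 0.0483. For 15 days in Oligo, in DESeq2 Tcf7l2 was at 0.0553, with RLE size factors Tcf7l2 was at 0.0134 and without Snap25-positive cells Olig2 was at 0.22. On leaving out libraries other values crossed 0. For 15 days in NF Oligo, Olig1 ranged from -0.0444 to 0.0532 and Tcf7l2 from -0.269 to 0.0155. For 15 days in Oligo, Olig2 ranged from -0.199 to 0.543 and Tcf7l2 from -0.493 to 0.374. For age in NF Oligo, Nkx2-2 ranged from -0.234 to 0.28, Enpp6 from -0.117 to 0.0886, Olig2 from -0.158 to 0.0952, Olig1 from -0.0964 to 0.332 and Sox10 from -0.114 to 0.524. For age by class, Nkx2-2 ranged from -1.07 to 0.214.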
